A study of Mus musculus with 6 samples.

Results

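The genes described here are Six2, Six4, Eya1, Eya2, Eya3, Eya4, Foxi2, Foxi3 and Irx1, which mark the preplacodal region, the band of ectoderm around the anterior neural plate. They were found by gene symbol: every probe set, the set of short probes on the array from which a transcript's signal is computed, was taken if the platform annotation gave it exactly 1 symbol and that symbol was among these 9. This gave 18 probe sets for 7 of the 9 genes, out of 45037 probe sets that were not array controls. No probe set was named for Foxi2 or Foxi3, and both were not analysed here.

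Signals came from whole mouse embryos at embryonic day 8.5, of which 3 were wild type and 3 were Tcof1+/- littermates, with 1 Affymetrix Mouse Genome 430 2.0 array for each embryo. Tcof1 is the gene of treacle, which works in the nucleolus in the making of ribosomal RNA, and people with a single working copy have Treacher Collins syndrome. Strain, sex and the structure of the Tcof1 allele are not given in the labels, which list the same protocols for both genotypes. No fluidics module of the instrument held arrays of both. The question addressed is whether the levels of these genes differed between the genotypes.

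Cranial placodes are thickenings of the head ectoderm that give rise to the lens, the olfactory epithelium, the inner ear and many neurons of the cranial sensory ganglia. They arise from a shared preplacodal region, which is marked by Six-family homeodomain factors together with Eya proteins, coactivators that lack a DNA binding domain of their own and carry a phosphatase domain. The homeodomain factors and the Eya coactivators act as a complex on target genes, and loss of 1 copy of EYA1 in humans causes branchio-oto-renal syndrome. The same genes are also active in head mesenchyme, somites and the forming kidney, so a whole embryo sums their signal over several tissues.

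The heterozygotes carried less Tcof1 transcript, at 54.5% of the wild-type signal on the brightest Tcof1 probe set, and that probe set passed in limma (log2 difference -0.88, SE 0.12, adjusted p = 0.0352). Its dimmer probe sets stood at 60.9% and 64.9% and did not pass (limma adjusted p of 0.385 and 0.582). The call on the brightest did not hold without any 1 of the arrays (limma adjusted p 0.0575 to 0.192) or without the intensity trend (0.413). Nor did it hold with scan day (0.0906) or the replicate number (0.182) as a block. The difference stayed between -0.95 and -0.77. Array medians ran from 21.0 to 25.6, array pairs correlated between 0.964 and 0.974 over the 27022 tested probe sets, and 3 arrays per genotype limit the precision. Markers of surface ectoderm, the tissue that contains the preplacodal region, were present, and none of 7 lay at background on every array. Their summed signal was 5911 to 6518 in wild types and 5799 to 7587 in heterozygotes. Most of it came from Krt8 and Krt18, at wild-type means of 3150 and 1763, while Trp63, Grhl2 and Grhl3 averaged 65.3, 84.6 and 63.4. The sum was therefore not taken as a measure of the amount of this tissue. The presence of these markers does not show that a gene of the placode field comes from that ectoderm. Fewer cells of a type cannot be told apart from less RNA per cell in whole embryos.

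No gene of the group differed between the genotypes beyond the spread between embryos. Of the 18 probe sets, 14 were bright enough to be tested, and 0 passed in limma with the adjusted p held below 0.05, where 0.0814% of all tested probe sets did. None of the 14 reached an unadjusted p under 0.05 in limma either, where 6.22% of all tested probe sets did. None of the 18 separated the genotypes without overlap, which 11.2% of all probe sets did. Over all 18 the log2 differences, heterozygote minus wild type, were 9 positive and 9 negative with a median of 0.01, beside a median of 0.00 over all 45037 probe sets.

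**Figure D1:**
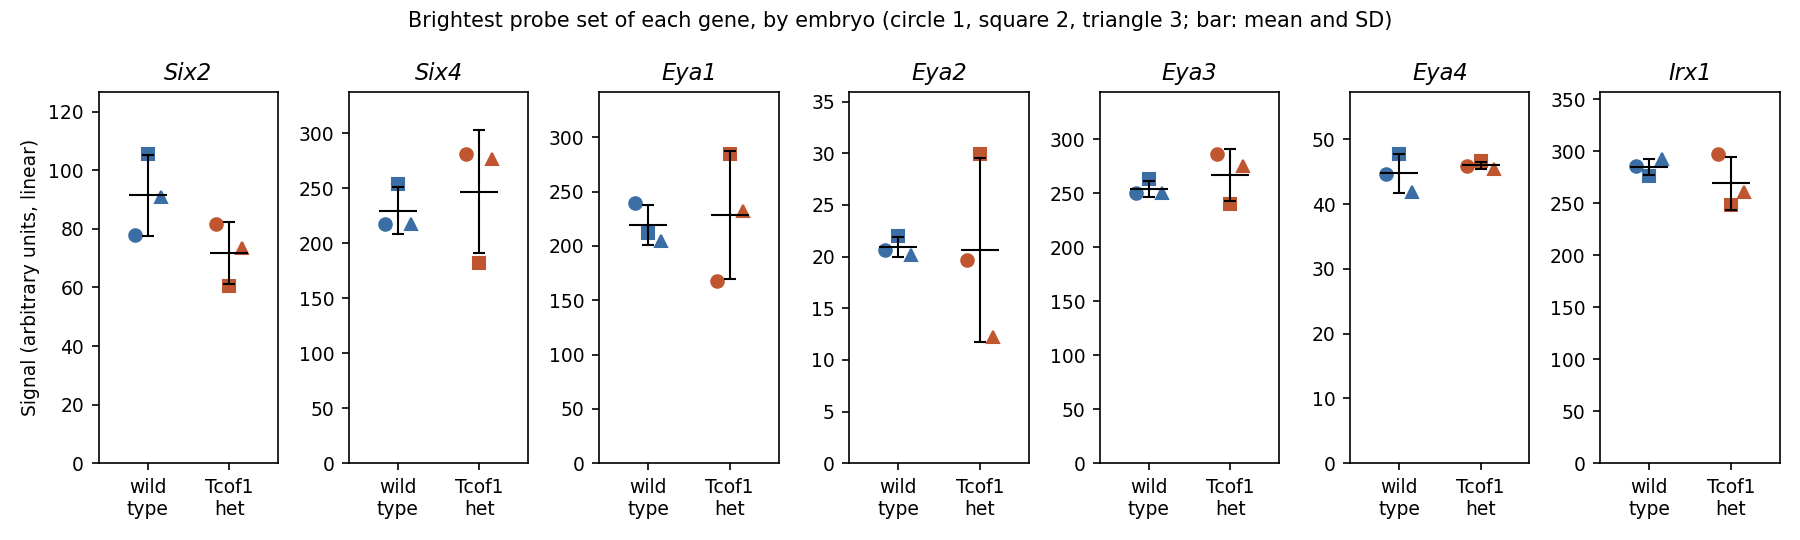
Linear signal (arbitrary units) of the brightest probe set of each gene in each embryo, with circles, squares and triangles for replicates 1, 2 and 3 of each genotype, and a bar for the mean and SD of 3 embryos. The genotypes overlap in every panel; signals of different genes come from different probes and cannot be set against each other.

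Six2 and Six4 are the Six-family genes of this group and encode homeodomain factors of the complex. Of these, Six2 had the larger difference on its brightest probe set. Six2, known for maintaining nephron progenitors and for its place in head mesenchyme, has 1 probe set. It gave 77.8, 106 and 91.0 in wild-type embryos 1, 2 and 3, and 81.6, 60.6 and 73.3 in heterozygous embryos 1, 2 and 3. Heterozygous embryo 1 lay above wild-type embryo 1, so the groups overlapped, although the lowest values came from heterozygous embryos 2 and 3. The means were 91.5 ± 13.9 and 71.8 ± 10.6 (SD, n = 3 per genotype), a log2 difference of -0.34 (SE 0.18) that did not pass (limma adjusted p = 0.817). Its 95% interval ran from -0.75 to 0.06, or from 0.596 to 1.05 times the wild-type level. By scan day, it was -0.36 over the 4 arrays of day 1 and -0.31 between the 2 arrays of day 2.

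Six4, which overlaps in function with other members of its family in sensory organs and muscle precursors, has 4 probe sets, of which 3 were bright and gave like differences. The brightest gave 217, 254 and 218 in wild types and 281, 182 and 277 in heterozygotes. Heterozygous embryos 1 and 3 lay above all wild types and heterozygous embryo 2 lay below all of them, so the heterozygotes enclosed the wild-type range. The log2 difference was 0.08 (SE 0.17, limma adjusted p = 0.946), with a 95% interval from -0.30 to 0.46. The probe set whose name ends in x, a mark for probes that may match other transcripts too, differed by 0.17 and the remaining bright one by 0.06. These 3 did not follow each other over the embryos: the brightest correlated at 0.599 with the x probe set and at -0.395 with the other (Pearson, 6 arrays, given as a description). By scan day, the brightest probe set gave -0.05 on day 1 and 0.34 on day 2.

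The Eya genes encode the coactivators, and their brightest probe sets gave differences between -0.10 and 0.07. Eya1, required for ear, kidney and cranial ganglia, gave 240, 212 and 205 in wild types and 167, 285 and 232 in heterozygotes on its brightest probe set. The lowest and the highest of the 6 values were both from heterozygotes, embryos 1 and 2, and the means were 219 ± 18.4 and 228 ± 58.8 (SD, n = 3 per genotype). The log2 difference was 0.03 (SE 0.18, limma adjusted p = 0.982), and its 95% interval, -0.37 to 0.43, spans 0.773 to 1.35 times the wild-type level. The dimmer probe sets of Eya1 differed by 0.35 and 0.31, with wider intervals that both included 0. They followed each other over the embryos (Pearson 0.914, 6 arrays) more closely than either followed the brightest one (0.508 and 0.273).

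Eya2, a coactivator of placodes and somites, has 1 probe set, close to background. Wild types were tightly grouped at 20.7, 22.0 and 20.1, and heterozygotes spread from 12.2 in embryo 3 over 19.7 in embryo 1 to 29.9 in embryo 2. The heterozygous SD was 8.91 against 0.954 in wild types, and the means were 20.6 and 20.9. The log2 difference of -0.10 (SE 0.36, limma adjusted p = 0.971) has an interval from -0.90 to 0.70.

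Eya3, the member of the family expressed most widely in other tissues, has 4 probe sets. The brightest gave 250, 263 and 250 in wild types and 287, 240 and 275 in heterozygotes, with heterozygous embryo 2 lowest and heterozygous embryos 1 and 3 highest. The log2 difference was 0.07 (SE 0.11, limma adjusted p = 0.927), and its 95% interval, -0.18 to 0.31, lies within 0.885 to 1.24 times the wild-type level. A second bright probe set pointed the other way, with 201, 261 and 237 in wild types and 229, 179 and 187 in heterozygotes. Its difference of -0.23 (SE 0.14) did not pass (limma adjusted p = 0.838). The dimmest tested probe set differed by -0.53 with an interval from -1.76 to 0.69. On it heterozygous embryo 2 gave 4.33, against 10.6 to 23.1 in the other 5 embryos, and the difference was 0.03 without that embryo.

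Eya4, mutated in a form of inherited hearing loss and known from the ear and heart, had the narrowest range over the embryos among the 7 brightest probe sets. It gave 44.7, 47.8 and 41.8 in wild types and 45.8, 46.6 and 45.5 in heterozygotes, so that all heterozygous values lay inside the wild-type range. The log2 difference was 0.04 (SE 0.19, limma adjusted p = 0.977), with an interval from -0.38 to 0.46. A dimmer tested probe set differed by -0.13 and did not pass (limma adjusted p = 0.962).

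Irx1, an Iroquois homeodomain factor of the neural plate border, neural tube and other epithelia, has 1 probe set. It gave 286, 277 and 293 in wild types and 298, 249 and 261 in heterozygotes, where embryo 1 was highest of all and embryos 2 and 3 were below the wild types. The means were 285 ± 7.94 and 269 ± 25.3 (SD, n = 3 per genotype). The log2 difference of -0.08 (SE 0.11, limma adjusted p = 0.909) had an interval from -0.32 to 0.15, or 0.799 to 1.11 times the wild-type level.

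**Figure D2:**
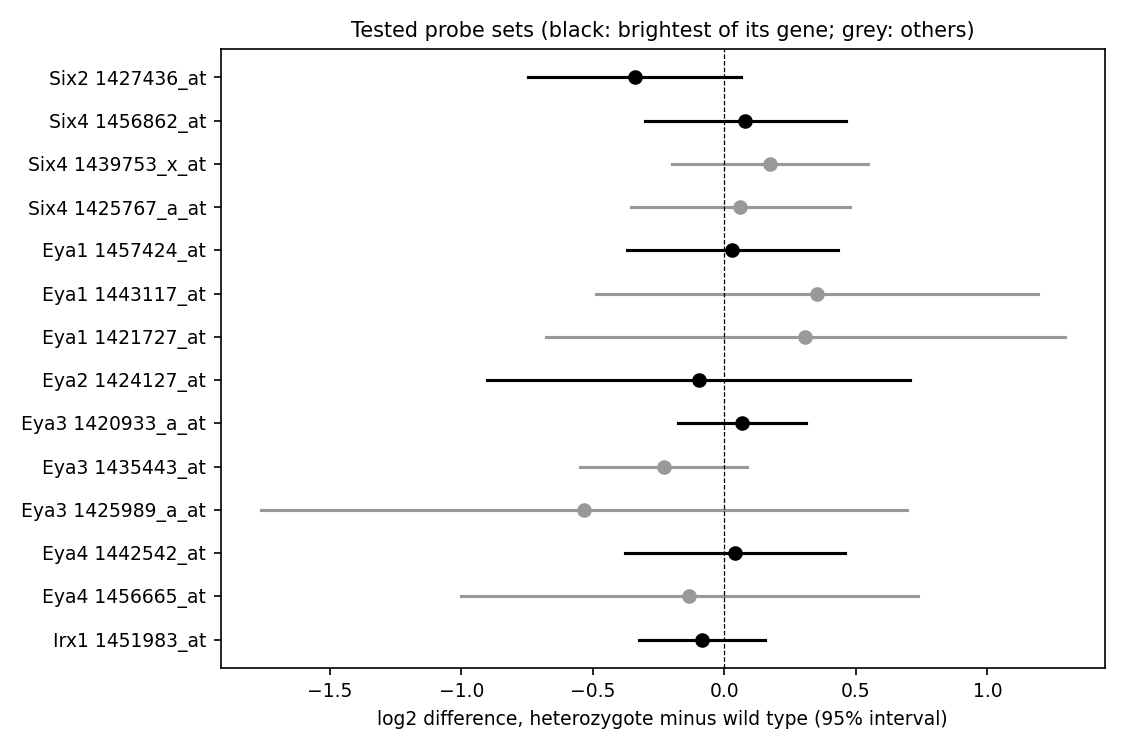
Log2 difference, heterozygote minus wild type, with its 95% interval from limma for the 14 tested probe sets, in black for the brightest of a gene and in grey for the others. Every interval includes 0, and those of dim probe sets, such as the dimmest of Eya3 at -1.76 to 0.69, are the widest.

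The intervals show what size of change these arrays leave possible for each gene. They are not adjusted for the number of genes. For the brightest probe set of all 7 genes the interval stayed within 2-fold in either direction, and for 5 of the 7, all but Six2 and Eya2, it stayed within 1.5-fold. Of the 14 tested probe sets 10 stayed within 2-fold and 8 within 1.5-fold.

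The 4 remaining probe sets were too dim to be tested and are given as values. Tests were limited to the 60% of probe sets with the highest mean log2 signal, which begins at a signal of about 13.2. The dimmest members just inside this limit were the dimmest tested ones of Eya3 and Eya1, at geometric means of 14.4 and 14.5, and the brightest just outside were a probe set of Eya4 at 10.7 and one of Eya3 at 7.99. Probe sets for bacterial transcripts that had not been added, a measure of background, reached 8.55 to 13.5 per array. The untested probe set of Six4 ran from 1.97 to 13.5, that of Eya3 from 1.11 to 25.4, and those of Eya4 from 7.46 to 13.3 and from 0.608 to 9.74. In all, 11 of the 18 probe sets lay above background on all 6 arrays, among them the brightest of each of the 7 genes.

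The embryos did not rank alike over the genes. On the brightest probe sets, heterozygous embryo 2 was the lowest embryo for Six2, Six4, Eya3 and Irx1 and the highest for Eya1 and Eya2, and heterozygous embryo 1 was the highest for Six4, Eya3 and Irx1 and the lowest for Eya1. For 5 of the 7 genes the log2 SD was larger in heterozygotes than in wild types, as it was for 48.7% of all tested probe sets. The SD was 0.59 against 0.06 for Eya2 and 0.38 against 0.12 for Eya1, whereas for Eya4 it was 0.02 against 0.09. The sign of the difference also changed between scan days for 3 of the 7 genes, Eya1, Eya2 and Six4; Eya4, whose difference on day 1 was under 0.01 in size, was not counted. Day 2 held 1 embryo of each genotype.

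**Figure D3:**
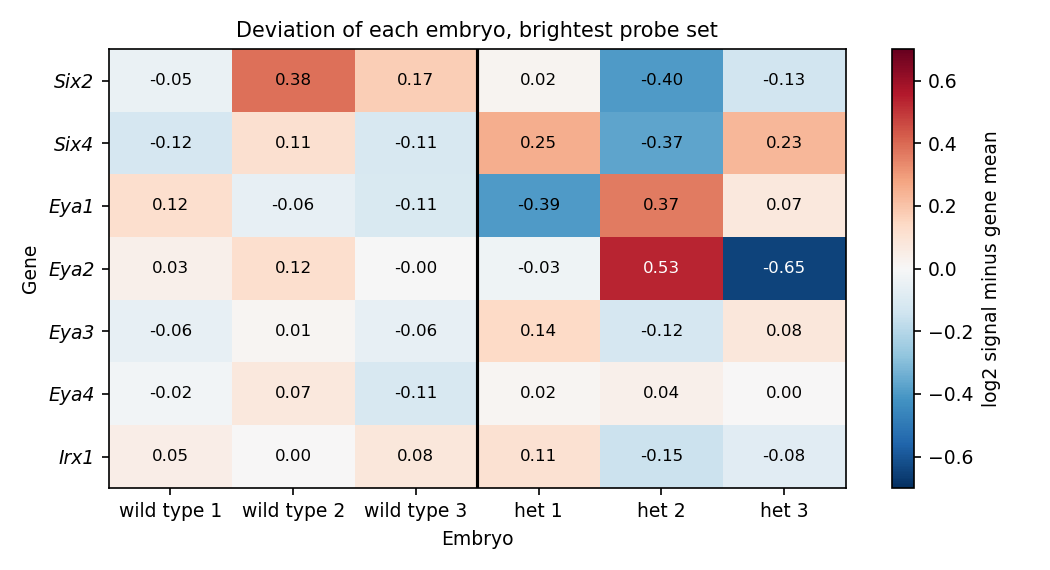
Log2 signal of each embryo minus the mean of that gene over 6 embryos, for the brightest probe set of each gene, red above and blue below the mean. Heterozygous embryo 2 is lowest for Six2 at -0.40 and high for Eya2 at 0.53, and no gene is blue in all 3 heterozygotes and red in all 3 wild types.

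Over the 6 arrays, the 21 pairs of these 7 probe sets had Pearson correlations from -0.842 to 0.960, of which 11 were positive and 10 negative, with a median of 0.172. Among these probe sets, those of Six4 and Eya3 were the most alike, at 0.960, and those of Eya1 and Irx1 the most opposed, at -0.842. That of Eya1 ran against those of Six4 (-0.733) and Eya3 (-0.761). Other bright probe sets of Six4 and Eya3 were less alike. The brightest of Eya3 correlated at 0.528 with the x probe set of Six4 and at -0.341 with its remaining bright one. The second bright probe set of Eya3 correlated at 0.385 with the brightest of Six4 and at 0.951 with Six2. These values describe 6 arrays that share their scaling and a pair of genotypes. By the same measure, the nearest other named gene was Kcnh1 for Six2 (0.999), Pigv for Six4 (0.999), Snhg12 for Eya1 (0.989), Rasa1 for Eya2 (0.988), Slc9b2 for Eya3 (0.996), Mmut for Eya4 (0.996) and Rasl12 for Irx1 (0.999). Each gene had between 37 and 64 probe sets above 0.95 among about 23025 compared, so many genes matched about as well.

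Several of the genes lie beside relatives in the genome, by the order of protein coding genes in the RefSeq table of GRCm38.p6. Six2 lies next to Six3 and Irx1 next to Irx2. Eya1 lies next to Msc and Eya4 next to Tcf21, a pair of related bHLH factors of branchiomeric muscle precursors. Six3, an eye field and forebrain gene, averaged 61.7 ± 14.0 and 43.2 ± 5.74 in wild types and heterozygotes (SD, n = 3 per genotype), a log2 difference of -0.48 that did not pass (limma adjusted p = 0.799). Irx2 differed by -0.19 and Tcf21 by 0.13, with limma adjusted p of 0.860 and 0.883. Msc, picked out after its values were seen, was too dim to be tested, at 16.2 ± 3.64 and 4.25 ± 1.77 (SD, n = 3 per genotype). Its groups did not overlap, where 11.2% of all probe sets did so. The heterozygous mean lay below the background of 8.55 to 13.5 per array, so the size of this difference cannot be read.

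The rest of the network was measured from a list of other Six-family genes, Dach genes and the cofactor gene Sobp. Of 7 listed, 5 were tested, 3 were positive and 2 negative, and 0 passed in limma. Six3 and Dach1, a corepressor partner of the complex, had the smallest p. Dach1 signal averaged 129 ± 5.60 in wild types and 155 ± 16.1 in heterozygotes (SD, n = 3 per genotype), with groups that did not overlap and a log2 difference of 0.25 (limma adjusted p = 0.812). The eye gene Six6 differed by -0.47 and Six5 by 0.12, and Dach2 by 0.28.

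Genes that prepare the ectoderm, together with the other Irx genes, were mostly negative: 10 of 12 tested, with a median of -0.16, and 0 passed in limma. Tfap2a, the gene of AP-2 alpha in surface ectoderm and neural crest, and Msx2, a homeobox gene of the neural plate border, had the smallest p, at log2 differences of -0.57 and -0.25 (limma adjusted p of 0.730 and 0.799). Foxi1, the relative of the unmeasured Foxi2 and Foxi3, was too dim to be tested, at 13.1 ± 6.61 and 8.32 ± 4.56 (SD, n = 3 per genotype). Genes of single placodes and their inducers had 12 of 15 tested members negative, with a median of -0.27, and 0 passed in limma. Pax6 and Otx2, of the lens and olfactory placodes and also of the forebrain, led this list at -0.58 and -0.53 (limma adjusted p of 0.492 and 0.649). Other placode genes too dim to be tested went both ways. Means, wild type first, were higher in heterozygotes for Sobp (9.20 and 17.0), Dlx3 (8.17 and 19.4) and Hmx3 (5.41 and 13.8). So were those of Hmx2 (5.19 and 9.18) and Foxe3 (1.98 and 2.23). They were lower for Dlx6 (7.5 and 2.19) and Neurog1 (14.1 and 5.46). Groups did not overlap for Dlx3, Hmx3 and Dlx6, where 11.2% of all probe sets did so.

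As 1 list, these other placode genes were negative for 24 of 32, with a median of -0.18, beside 49.1% negative and a median of 0.00 over all tested probe sets. The list was chosen with earlier results of these data known, so its counts are given as a description. The groups did not overlap for 8 of the 32, where 12.2% of all tested probe sets did so. An unadjusted p under 0.05 in limma was reached by 6 of the 32, of which 5 were among the 15 genes of single placodes and their inducers, beside 6.22% of all tested probe sets. Set against the wild-type mean, the median was -0.14 in heterozygous embryo 1 and -0.16 in both others. By scan day, it was -0.21 on day 1 and -0.11 on day 2. It was -0.11 without wild-type embryo 1. Neural plate markers, of which Sox2, Otx2 and Pax6 also stand in this list, were negative in 5 of 5, and 0 of 5 passed in limma. All 5 reached an unadjusted p under 0.05 in limma and had groups that did not overlap, beside 6.22% and 12.2% of all tested probe sets. Lhx2 and Pax6 had the smallest p (limma adjusted p of 0.457 and 0.492). Their summed signal was 1552 to 1810 in wild types and 1190 to 1449 in heterozygotes. None of the 5 lay at background on every array. All 3 shared genes were among the 8 without overlap and among the 6 with an unadjusted p under 0.05 in limma. Without the 3 shared genes, 21 of 29 were negative with a median of -0.17. The part of neural tissue in the remaining values was not tested.

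**Figure D4:**
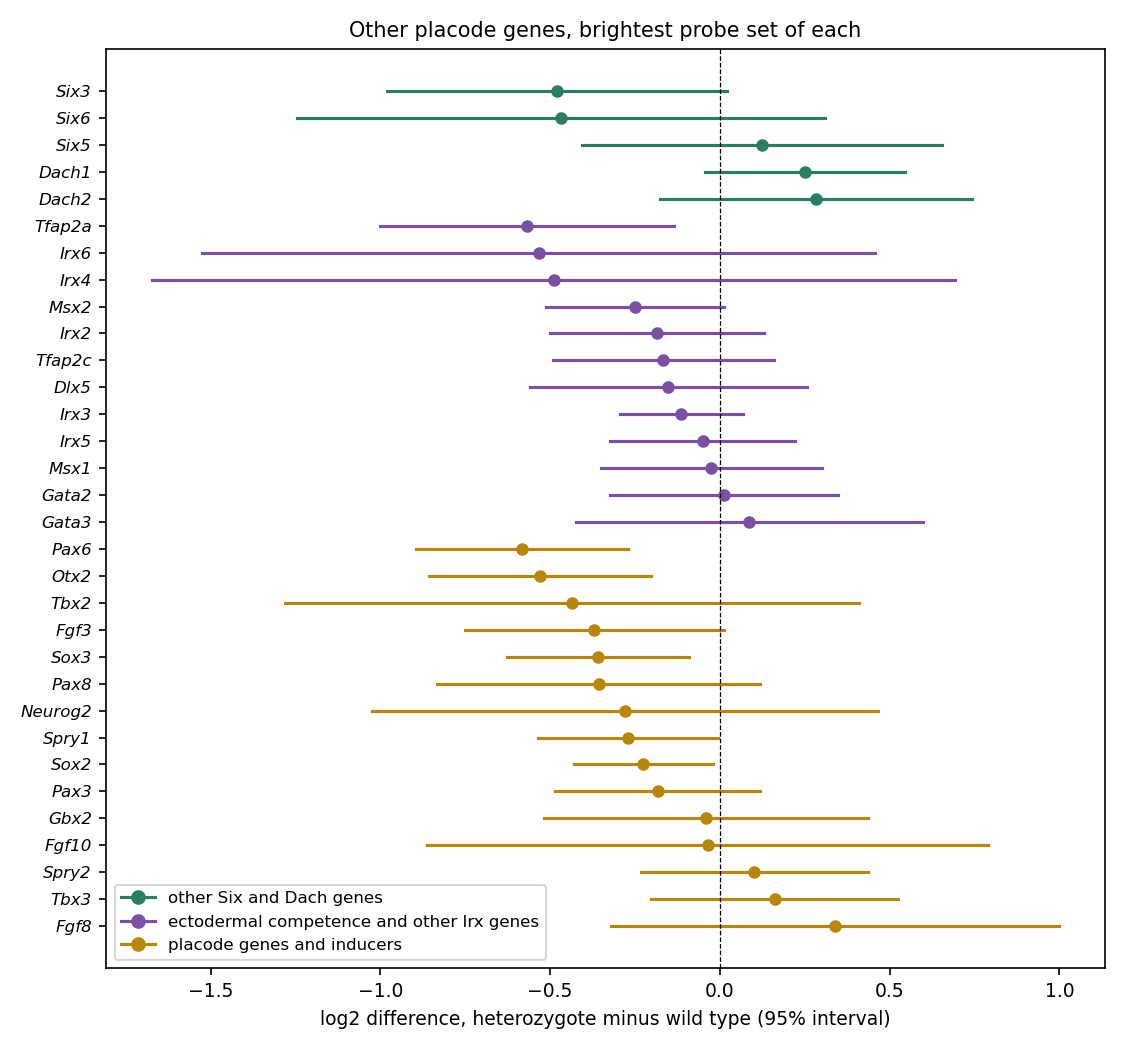
Log2 difference, heterozygote minus wild type, with its 95% interval from limma for the brightest probe set of each of 32 tested placode genes outside the group, coloured by list. Of these, 24 lie below 0, with Pax6 at -0.58 the lowest, and 0 passed the threshold over all probe sets.

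Markers of other tissues of the embryo did not pass in limma either; for each list the 2 genes with the smallest p are named with their log2 differences. Neural crest markers were negative in 5 of 5, with Crabp1 at -0.45 (limma adjusted p = 0.0662) and Tfap2b at -0.66 (0.582), and summed to 3002 to 3306 in wild types and 2175 to 2513 in heterozygotes. Somite markers were negative in 3 of 5, with Tcf15 at -0.50 and Myf5 at 0.68. Intermediate mesoderm markers, of a tissue where Six2 and Eya1 act later, were negative in 2 of 4, with Pax8 at -0.36 and Lhx1 at 0.30. Head mesoderm markers were negative in 1 of 3, with Isl1 at 0.17 and Tcf21 at 0.13, and so were endoderm markers, with Sox17 at 0.30 and Foxa2 at -0.08. Surface ectoderm markers were negative in 2 of 7, with Cdh1 at 0.24 and Trp63 at 0.19. Heart markers were negative in 1 of 4, with Tbx20 at 0.52 and Myl7 at 0.27, and endothelial markers in 2 of 4, with Erg at 0.44 and Fli1 at 0.43. Erythroid markers were negative in 4 of 4, with Alas2 at -1.40 and Klf1 at -0.93. They summed to 3700 to 8052 in wild types and to 203, 3092 and 5655 in heterozygous embryos 1, 2 and 3, so that embryo 1 stood far below the others. Yolk sac markers were negative in 3 of 3 on the log2 scale, with Apoa1 at -0.79 and Afp at -0.22, while the mean linear signal of all 3 was higher in heterozygotes (803 and 1089 for Apoa1, 1247 and 1558 for Afp, wild type first). Their sums were 1357, 7325 and 6170 in wild-type embryos 1, 2 and 3 and 10892, 616 and 6706 in the heterozygous ones, so no direction can be read for this list. An unadjusted p under 0.05 in limma was reached by 3 of 5 neural crest markers and by 2 of 4 heart, endothelial and erythroid markers each. No marker of the other lists in this paragraph reached it, beside 6.22% of all tested probe sets. Groups did not overlap for 2 neural crest, 2 heart, 3 endothelial and 1 intermediate mesoderm marker, beside 12.2% of all tested probe sets. The part of these tissues in the values of the 7 genes was not tested.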

How the data were processed

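Total RNA of single embryos, 100 ng each, was amplified in 2 cycles, and 20 µg of biotinylated cRNA was hybridised per array, per the labels' protocols. The deposited file holds an intensity on a linear scale for each probe set, computed by GCOS, per the submitters' processing notes. Its signal algorithm is not given in the sources used. Arrays shared a 2% trimmed mean of about 150, found from the values. Instrument records gave the scan day: replicates 1 and 2 of both genotypes on the first, replicate 3 of both on the second. No fluidics module held both genotypes, so module and genotype cannot be told apart.

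Of 45101 probe sets, 64 controls were left out. Values became log2(signal + 1.87), the 10th percentile as pseudocount, and the 40% with the lowest mean log2 were not tested (a filter on the mean linear signal, run first, is given among the alternatives). Genotype was fitted with limma 3.58.1 (lmFit, then eBayes with trend) in R 4.3.3. P-values are two-sided and adjusted by Benjamini-Hochberg over all 27022 tested probe sets; the fit was tested on simulated data. The brightest probe set stands for a gene. Named were all members, Tcof1, the nearest gene by correlation and the 2 genes of each list with the smallest p. Others named are genomic neighbours and remaining members of the list of Six-family and Dach genes. Foxi1 is named as a relative of members without a probe set, and Sox2 as a gene of both lists. The other placode genes too dim to be tested were named after their values were seen. Members and lists were chosen with earlier results of these data known. Alternatives were another pseudocount, quantile normalization, equal medians, other filters, no trend, array weights, the replicate number or scan day as a block, each array left out and, for the list, each gene's mean over its probe sets. Figures used matplotlib 3.10.9.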

Additional observations from a re-analysis of the deposited data

How the results depend on the processing

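No probe set of the 7 genes passed in limma in any alternative run (0 of 14 in most, 0 of 18 without a filter, 0 of 9 with the 60% filter, and 0 of 13 without wild-type embryo 1 or 3), and the smallest adjusted p was 0.724. Over 231 refits of single probe sets 11 changed direction, all of them with 1 array left out, and the sign of 8 probe sets therefore rests on single embryos. Leaving out each array in turn gave -0.15 to 0.23 for the brightest and -0.054 to 0.64 for the dimmest tested probe set of Eya1, -0.39 to 0.20 for Eya2, -0.95 to 0.027 for the dimmest tested one of Eya3 (4 of the 6 runs, since it was too dim to be tested without wild-type embryo 1 or 3), -0.0074 to 0.085 and -0.30 to 0.11 for Eya4, and -0.028 to 0.28 and -0.13 to 0.22 for Six4. Six2 stayed between -0.45 and -0.23, Irx1 between -0.16 and -0.03.

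Over all probe sets, 22 passed. The filter was first run on the mean linear signal and changed to the mean log2 value after those results had been seen: the first form called the same 22 probe sets in limma, tested 14 probe sets of the 7 genes and called 0 of them (1673 of all probe sets at an unadjusted p under 0.05). The count was 0 without the intensity trend (limma; 1571 at an unadjusted p under 0.05), 14 with scan day as a block and 8 to 20 with 1 array left out: leaving out wild-type embryo 1 gave 8, either other wild type 11, and heterozygous embryo 2 gave 12. The replicate number as a block gave 10. Deviations of same-numbered embryos correlated at -0.08, -0.10 and -0.02, and no embryo correlated best with its own number, so the numbers were not taken to pair the embryos, although same-numbered arrays share a scan day. The cause of these changes was not tested.

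The median of the other placode genes, -0.18, was -0.20 with equal array medians, array weights or each gene's mean over its probe sets, and -0.17 with the 60% filter. It was -0.23 to -0.11 with 1 array left out. Alternatives chosen after seeing the data gave -0.17 without the neural plate genes, -0.21 on scan day 1 and -0.11 on day 2. Dim probe sets limit the precision for Eya2 and for the dimmer probe sets of Eya1, Eya3 and Eya4.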
